A study of Mus musculus with 12 samples.

Results

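Histone deacetylases and sirtuins remove acetyl groups from histones and many other proteins, and the genes that encode 10 of them are described here by the histone acetylation measured on their own chromatin in regenerating mouse liver. The genes were 3 of class I (Hdac1, Hdac2 and Hdac3), 3 of class IIa (Hdac4, Hdac5 and Hdac7) and 4 sirtuins (Sirt1, Sirt3, Sirt5 and Sirt6). Their regions were those to which the authors' annotation gave one of these gene names, and they numbered 24 of 36387 regions. They belonged to 9 of the 10 genes, out of 11240 gene names in the table: 7 regions carried the name of Hdac5, 6 that of Hdac4, 2 each those of Hdac1, Hdac3, Sirt1 and Sirt3, and 1 each those of Hdac2, Hdac7 and Sirt5. No region carried the name of Sirt6. By the deposited annotation, 12 of the 24 lay within 1 kb of a start site (promoters, below), 3 between 1 and 2 kb, 2 between 2 and 3 kb, 4 in introns and 3 in distal intergenic sequence. A region away from a start is named for the nearest gene, and a name therefore does not show which gene the region serves.

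Acetylation of histone H3 at lysine 27 (H3K27ac), which marks active promoters and enhancers, was measured by chromatin immunoprecipitation and sequencing (ChIP-seq) in 3 libraries of wild-type and 3 of Cox10-/- liver. All mice carried the floxed Cox10 conditional allele. Those labelled wild type had received AAV8-GFP and those labelled Cox10-/- AAV8-Cre, an adeno-associated virus carrying Cre recombinase, by retroorbital injection. A 70% partial hepatectomy followed 4 weeks later in both groups, and the liver was taken on day 2 after it. The wild-type group was thus a floxed, virus-injected and regenerating control. The promoter that drove Cre, the age of the mice and whether each replicate was its own animal are not stated in the labels or the table, so the p-values measure only the spread between these libraries, which may be technical. Cox10 encodes heme A:farnesyltransferase, an enzyme needed to build cytochrome c oxidase of the respiratory chain.

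Class I deacetylases work in the nucleus as the catalytic subunits of corepressor complexes: Hdac1 and Hdac2 in the NuRD, SIN3 and CoREST complexes, Hdac3 in the NCoR and SMRT complexes. Class IIa proteins have little catalytic activity of their own on acetyl-lysine, bind MEF2 transcription factors, and shuttle between nucleus and cytoplasm as kinases phosphorylate them and 14-3-3 proteins hold them outside the nucleus. Sirtuins use NAD as a cosubstrate, so that their activity is tied to the redox state of the cell. Sirt1 and Sirt6 are nuclear, Sirt3 is the main deacetylase of the mitochondrial matrix, and Sirt5 removes malonyl, succinyl and glutaryl groups from mitochondrial proteins. In liver these enzymes are known for their part in fasting metabolism, fatty acid oxidation and the circadian control of lipid synthesis.

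The sequences around some of the start sites are shown first. They are those of the 2 starts of Sirt3, the gene with the greatest loss of the 9, and of Sirt1, Sirt5 and Hdac4. Both Sirt1 regions, the Sirt5 region and, of the 6 Hdac4 regions, the one just upstream of the start lost less than the median region. Hdac1 region 1, Hdac2, Hdac5 region 7 and Hdac7 also lost less, and no sequence of these genes is shown. Each sequence shown is 300 bases of the gene's own strand, 5′ to 3′, from RefSeq on build GRCm38.p6 (the same coordinates as mm10). It has 250 bases before the start and 50 from it on. Capitals mark matches, on either strand, to a GC box (GGGCGG), the CCAAT box (those letters), an E-box (CACGTG), a CRE core (TGACG), the TATA box (with the letters TATAAA), an ETS core (CCGGAA) or an NRF1 core (TGCGCA). Windows were found for 8 of the 10 genes, 13 windows in all.
Sirt3, upstream start (chr7:140882260-140882559, minus strand): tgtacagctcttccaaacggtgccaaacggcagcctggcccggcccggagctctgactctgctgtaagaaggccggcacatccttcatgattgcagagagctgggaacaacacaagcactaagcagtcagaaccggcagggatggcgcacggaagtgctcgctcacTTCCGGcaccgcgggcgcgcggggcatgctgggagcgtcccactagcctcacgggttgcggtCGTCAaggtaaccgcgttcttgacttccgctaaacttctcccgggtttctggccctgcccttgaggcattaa
Sirt3, downstream start (chr7:140881820-140882119, minus strand): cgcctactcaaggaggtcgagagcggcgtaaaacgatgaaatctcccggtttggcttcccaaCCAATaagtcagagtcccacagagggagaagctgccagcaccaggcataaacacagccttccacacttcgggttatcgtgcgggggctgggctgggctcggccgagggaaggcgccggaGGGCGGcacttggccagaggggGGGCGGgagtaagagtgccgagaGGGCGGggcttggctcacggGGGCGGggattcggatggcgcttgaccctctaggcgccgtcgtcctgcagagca
Sirt1 (chr10:63338986-63339285, minus strand): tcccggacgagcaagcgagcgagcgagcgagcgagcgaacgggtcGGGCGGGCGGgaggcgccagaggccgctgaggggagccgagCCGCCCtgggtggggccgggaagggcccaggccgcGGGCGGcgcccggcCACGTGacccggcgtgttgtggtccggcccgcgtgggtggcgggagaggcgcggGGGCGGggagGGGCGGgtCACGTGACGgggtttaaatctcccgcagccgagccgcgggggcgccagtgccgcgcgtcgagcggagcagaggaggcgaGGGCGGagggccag
Hdac4 (chr1:92180292-92180591, minus strand): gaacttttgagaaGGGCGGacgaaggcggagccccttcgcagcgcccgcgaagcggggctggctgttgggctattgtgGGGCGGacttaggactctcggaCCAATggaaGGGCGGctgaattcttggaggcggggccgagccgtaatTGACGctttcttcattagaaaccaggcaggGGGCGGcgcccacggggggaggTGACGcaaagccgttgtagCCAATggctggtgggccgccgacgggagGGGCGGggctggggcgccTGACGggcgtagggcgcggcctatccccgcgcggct
Sirt5 (chr13:43365285-43365584, plus strand): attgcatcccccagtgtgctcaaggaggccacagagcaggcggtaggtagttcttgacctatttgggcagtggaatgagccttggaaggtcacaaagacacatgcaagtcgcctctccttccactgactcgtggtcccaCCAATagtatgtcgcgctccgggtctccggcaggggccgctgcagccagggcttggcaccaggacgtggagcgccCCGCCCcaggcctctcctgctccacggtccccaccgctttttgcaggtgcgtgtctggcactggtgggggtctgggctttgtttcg

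The upstream Sirt3 window held an ETS core and a CRE core and no GC box, whereas the downstream Sirt3 window held 4 GC boxes and a CCAAT box. The Sirt1 window was the richest of the 13 in CpG, with 47 of them and a GC share of 79%; 98.6% of the 32851 windows in the reference had fewer CpG. It held 7 GC boxes, of which the first pair overlap, and 2 E-boxes, one of which overlaps a CRE core. The Hdac4 window held 5 GC boxes, 2 CCAAT boxes and 3 CRE cores, and the Sirt5 window 1 GC box and 1 CCAAT box. Among windows not shown, that of Hdac5 held 1 GC box and 18 CpG, and that of Hdac2 1 GC box and 36 CpG. The window of the Hdac7 start nearest to its region held 1 GC box and 31 CpG. Of all windows, 35.7% held a GC box, 37.4% a CCAAT box, 7.15% an E-box, 20.8% a CRE core, 13.6% a TATA box, 14.9% an ETS core and 7.76% an NRF1 core. A match describes letters and not binding.

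H3K27ac is given as normalised reads per region on the authors' scale. Read totals over all regions were 3897454 to 4187377 per wild-type library and 3282878 to 3385453 per Cox10-/- library, and the authors' size factors were 0.730 to 0.782 and 1.18 to 1.32. On this scale the median region was 2.06-fold lower in Cox10-/- liver, so the genes are also described on a relative scale, obtained by subtracting from every library the log2 level of its own median region (which shifts the contrast by 1.05). The only region named for Cox10, in an intron, held 15.1 ± 2.54 reads in wild type and 57.4 ± 10.3 in Cox10-/- liver (SD, n = 3), and does not check the deletion. Summed over 8 of 10 listed hepatocyte markers with a region, the signal was 16380 to 17117 in wild type and 4862 to 5548 in Cox10-/- liver; over 3 of 10 macrophage markers it was 3262 to 3442 and 2129 to 2451, although the median log2 change of these 3 genes was 0.48, and over 4 of 10 endothelial markers 602 to 685 and 374 to 486. Stellate, biliary, lymphocyte and erythroid lists had 1, 2, 1 and 1 genes with a region, neutrophil markers none, and the defining Kupffer cell genes Clec4f and Vsig4 none. The part of these markers in the values below was not tested. In whole liver, fewer cells of a type and less mark per cell cannot be told apart.

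All 24 regions of the deacetylase genes were lower in Cox10-/- liver on the deposited scale (limma, Benjamini-Hochberg adjusted p under 0.05 over all regions), by 1.35- to 4.59-fold. Among all regions 87.2% were lower and 4.46% higher, and the median log2 change of the 24, -1.08, lay next to that of all regions, -1.04. In 22 of the 24 every wild-type library was above every Cox10-/- library, which held for 86.4% of all regions; the exceptions were Hdac5 region 7 and Sirt1 region 1. The authors' deposited table called 23 of the 24 lower at the same threshold. A lower signal was the common state of regions in this table, and the 24 log2 changes ranged from -2.20 to -0.43.

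**Figure D1:**
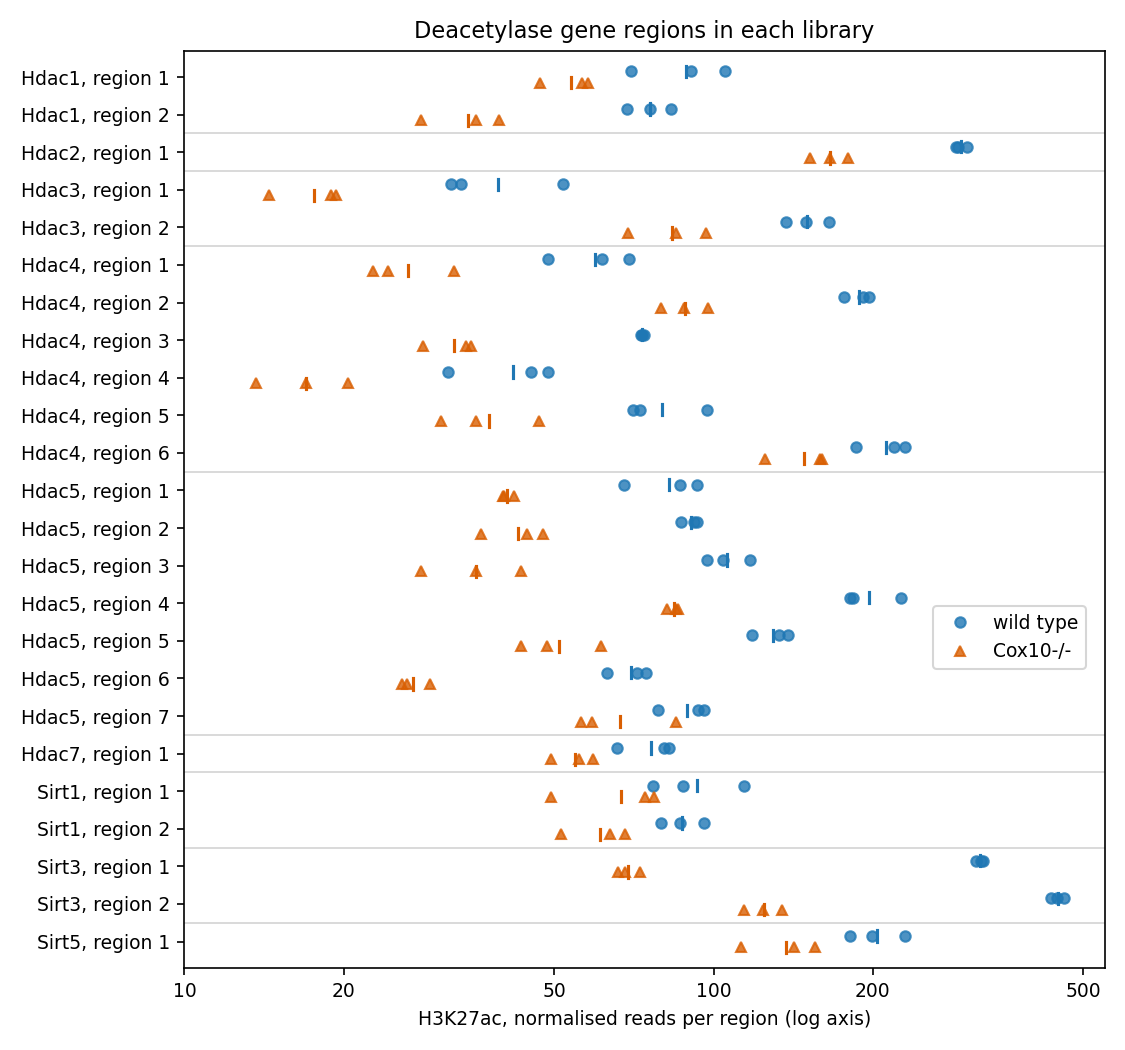
H3K27ac in the 24 regions of the deacetylase genes, in normalised reads per region on a log axis; each point is 1 library (3 wild type, 3 Cox10-/-), a tick is the mean of a genotype, and regions are numbered along the chromosome. Both Sirt3 regions lie far to the left in Cox10-/- liver, while the groups overlap at Hdac5 region 7 and Sirt1 region 1.

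Relative to the median region, 3 of the 24 lost more (both Sirt3 regions and Hdac5 region 3), 8 lost less and 13 did not pass the test, where 32.4% of all regions lost more and 33.6% less. The 8 were Hdac1 region 1, Hdac2, Hdac4 region 6, Hdac5 region 7, Hdac7, both Sirt1 regions and Sirt5. At promoters all 12 regions were lower on the deposited scale (92.3% of 15980 promoters were lower and 1.26% higher), with a median log2 change of -0.84 against -0.87 for all promoters. Relative to the median region, 1 of the 12 lost more and 6 lost less, beside 18.9% and 42.2% of all promoters. The 12 regions outside promoters had a median log2 change of -1.09, against -1.28 for the 20407 such regions in the table. Both medians and the counts at promoters follow the annotation. Hdac5 regions 4, 5 and 6 (-1.21, -1.34 and -1.33), counted as promoters, lie 10.2 to 12.1 kb downstream of its RefSeq start. Counted outside them are Hdac4 regions 5 and 6 (-1.07 and -0.52) and the Sirt5 region (-0.57), all within 1 kb of a RefSeq start. Centred on the median promoter instead, 6 of the 24 lost more and 6 lost less, beside 14417 and 8988 of all regions. Centred on the median region with a minimum of 1.5-fold added, 2 of the 24 lost more (both Sirt3 regions) and 1 less (Hdac5 region 7), beside 8322 and 6145 of all regions.

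**Figure D2:**
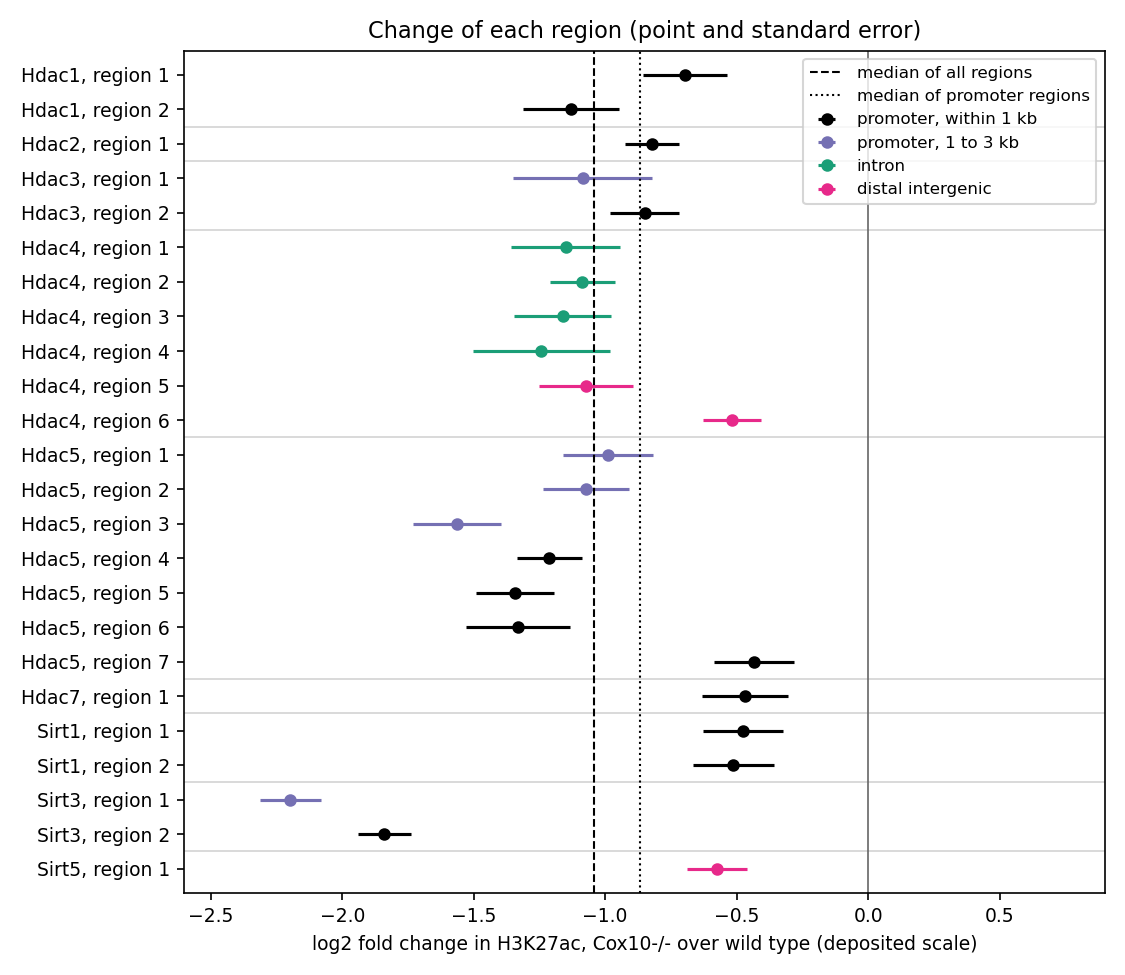
Log2 change (Cox10-/- over wild type) of each of the 24 regions with its SE, on the deposited scale, with the median of all regions as a line. Sirt3 holds the lowest values (-2.20 and -1.84), and Hdac5 region 7, Hdac7 and Sirt1 region 1 the highest (-0.43, -0.47 and -0.47).

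Sirt3 lost the most. Its promoter region, on chromosome 7 from 140880721 to 140881830 (mm10), held 460, 446 and 435 normalised reads in wild type and 124, 135 and 114 in Cox10-/- liver. The neighbouring region from 140879359 to 140880444, annotated 1 to 2 kb from the start, held 314, 320 and 323 reads and then 68.0, 72.6 and 65.9. The groups were far apart in both regions, and the libraries of a genotype lay close together. The log2 change was -1.84 (SE 0.0997, limma adjusted p = 4.0e-45), or 3.58-fold lower, in the promoter region, and -2.20 (SE 0.12, limma adjusted p = 1.0e-46), or 4.59-fold lower, in its neighbour. Of all promoters, 7.42% had a lower change than the Sirt3 promoter region. Relative to the median region the changes were -0.79 (adjusted p = 5.2e-14) and -1.15 (adjusted p = 7.0e-17), and both calls held in all 15 alternatives run at the same threshold.

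The loss was uneven along the Sirt3 locus. The upstream Sirt3 start, at 140882309, lies 85 bp from the start of Psmd13, which encodes a subunit of the proteasome lid and is transcribed in the opposite direction. Both Sirt3 regions lie inside the gene, 479 to 1588 bp and 1865 to 2950 bp downstream of that start, and 2 regions named for Psmd13 flank the paired starts, which both lie in the gap of 136 bp between these regions. The first of these, from 140881962 to 140882307, held 108, 97.2 and 88.2 reads in wild type and 45.9, 54.1 and 49.2 in Cox10-/- liver, a log2 change of -0.96. Although named for Psmd13, it lies 2 to 347 bp downstream of the upstream Sirt3 start and so also inside Sirt3. Relative to the median region it changed by 0.09 and did not pass the test (limma adjusted p = 0.586). The second, from 140882444 to 140882698, held 65.2, 58.9 and 52.4 reads and then 56.9, 39.5 and 37.1, a log2 change of -0.41, with overlapping groups. This second region lost less than the median region (0.64, limma adjusted p = 9.7e-04). The log2 changes thus ran from -0.41 on the Psmd13 side to -2.20 inside Sirt3.

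The differences between neighbouring regions were tested in 1 limma fit over 23681 adjacent pairs, a test added after the data were seen, in which 25.1% of pairs differed; of the 17 pairs at the deacetylase genes 3 did. The Sirt3 promoter region and the nearer Psmd13 region, 131 bp apart, differed by 0.88 on the log2 scale (SE 0.16, limma adjusted p = 5.5e-05, and 1.6e-04 to 0.00129 with each library left out in turn). The step between the 2 Sirt3 regions was smaller, 0.36 (SE 0.13, limma adjusted p = 0.0418), and did not pass when any 1 library was left out (adjusted p 0.0560 to 0.123). The step between the Psmd13 regions, 0.55 (SE 0.24), did not pass (limma adjusted p = 0.0918). The third pair that differed was at Hdac4, described with that gene. The region outside the Sirt3 promoter held 40.6, 41.8 and 42.7% of the gene's signal in wild type and 35.4, 35.0 and 36.6% in Cox10-/- liver, with no overlap; the exact permutation test gave p = 0.1, the smallest that 3 against 3 libraries allow, and 0.3 after Benjamini-Hochberg adjustment over 3 genes.

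**Figure D3:**
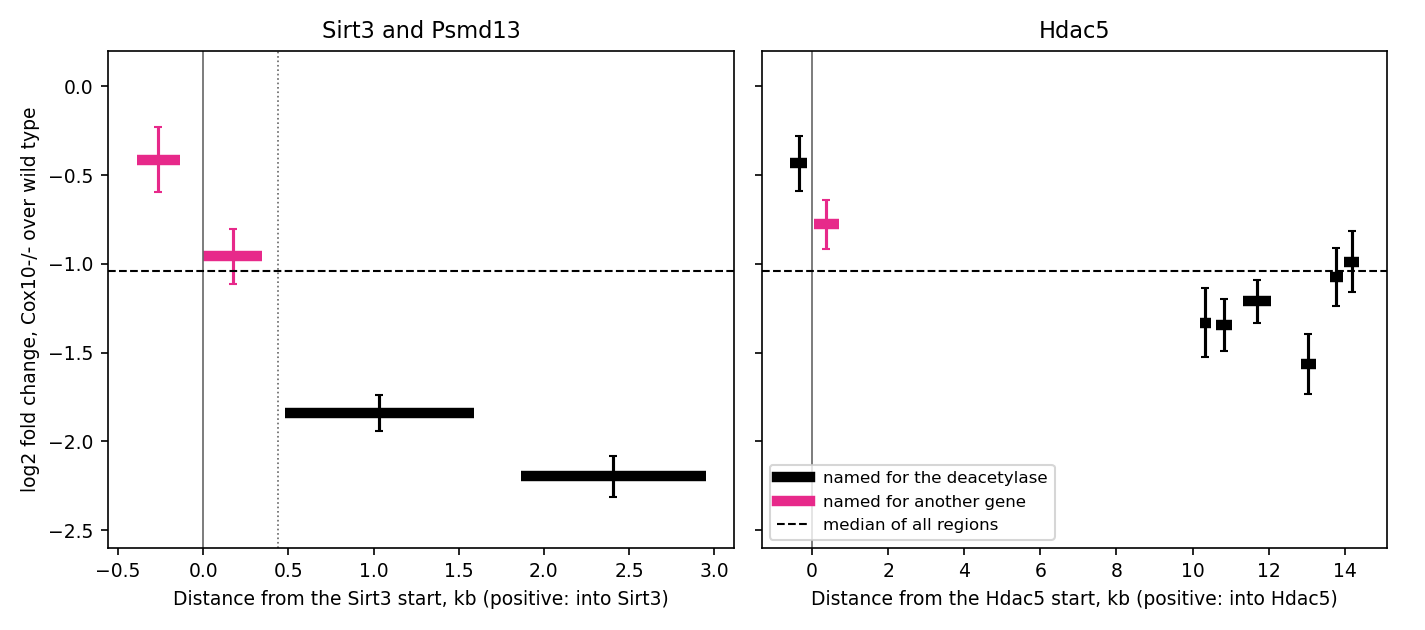
Log2 change (Cox10-/- over wild type, with SE) of each region against its distance in kb from the start of Sirt3 (left, from the upstream start, with the downstream start dotted) and Hdac5 (right); bars span the regions. At Sirt3 the values go from -0.41 on the Psmd13 side to -2.20 inside the gene. At Hdac5 they are -0.43 before the start, -0.78 in the Mir8101 region and -1.57 to -0.99 farther in. No step between neighbouring regions at Hdac5 passed the test.

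The nuclear deacetylase Sirt1 and the mitochondrial desuccinylase Sirt5 were among those with the smallest changes. Sirt1 had a region on each side of its start on chromosome 10, and both passed the test in both scales. Region 1 (63338485 to 63338984), inside the gene, held 114, 87.7 and 76.7 reads in wild type and 77.3, 74.3 and 49.2 in Cox10-/- liver, so that the highest Cox10-/- library was above the lowest wild-type library. Its log2 change was -0.47 (SE 0.15, limma adjusted p = 0.00250) and 0.58 relative to the median region (adjusted p = 3.7e-04). The call on the deposited scale was lost without wild-type replicate 1 (adjusted p = 0.0746), without Cox10-/- replicate 3 (0.0955), where the log2 change was -0.27, and in limma without a variance trend (0.0508), and the relative call in none of the 15 alternatives.

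Sirt1 region 2 (63339261 to 63339623), upstream of the start, held 86.5, 79.4 and 95.9 reads in wild type and 68.0, 63.8 and 51.5 in Cox10-/- liver, with no overlap. It changed by -0.51 (SE 0.15, limma adjusted p = 0.00122), and the difference between the 2 Sirt1 regions was -0.04 (SE 0.22). The CpG-rich window printed above lies mostly in the gap between them. Sirt5 had 1 region on chromosome 13 (43365218 to 43366127), annotated as distal intergenic although it holds the RefSeq start of Sirt5 at 43365535. It held 200, 181 and 230 reads in wild type and 156, 142 and 113 in Cox10-/- liver, with no overlap, a log2 change of -0.57 (SE 0.11, limma adjusted p = 1.2e-06). Relative to the median region this was a change of 0.48 (adjusted p = 2.0e-05).

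Sirt6, a nuclear deacetylase of H3 that limits glycolytic genes, had no region with its name. Its 2 RefSeq starts, at 81627566 and 81627322 on chromosome 10, lay 55.3 and 55.1 kb from the nearest region, so no value is given for it. The selection of the table's regions is not described in the labels or the table, and a missing region therefore sets no limit on its signal.

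The promoter regions of the class I genes changed by -1.13 to -0.70, beside the median of -0.87 for all promoters. Hdac2, a core deacetylase of NuRD and SIN3, had 1 region over its start on chromosome 10 (36974267 to 36975132), with 302, 290 and 288 reads in wild type and 166, 179 and 152 in Cox10-/- liver, and the groups did not overlap. It changed by -0.82 (SE 0.10, limma adjusted p = 1.1e-13). Its paralog Hdac1 had 2 promoter regions on chromosome 4: region 1 (129542271 to 129542627) changed by -0.70 (SE 0.16) and region 2 (129542901 to 129543229) by -1.13 (SE 0.18). The difference of -0.43 between these 2 regions did not pass the test (SE 0.24, limma adjusted p = 0.198). Hdac2 and Hdac1 region 1 lost less than the median region (0.23 and 0.36, adjusted p = 0.0124 and 0.0316), but these calls were lost in 4 and 7 of 15 alternatives, among them centring on the median promoter.

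Hdac3, the catalytic subunit of the NCoR and SMRT complexes, had a promoter region on chromosome 18 (37954418 to 37954944) with 165, 137 and 150 reads in wild type and 85.0, 96.8 and 68.9 in Cox10-/- liver, again without overlap. Its log2 change was -0.85 (SE 0.13, limma adjusted p = 8.3e-10). A weaker region 1 to 2 kb from the start changed by -1.08 (SE 0.26), on 32.0 to 52.0 reads in wild type and 14.4 to 19.4 in Cox10-/- liver. Neither passed the test against the median region (adjusted p = 0.124 and 0.920). The share of Hdac3 signal outside the promoter was 20.6% ± 5.99 in wild type and 17.6% ± 3.60 in Cox10-/- liver (SD, n = 3, exact permutation p = 0.5).

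Of the class IIa genes, Hdac4 and Hdac5 held 13 of the 24 regions, and in both the region just upstream of the start had the smallest change of that gene's regions. Hdac4 region 6 on chromosome 1 (92180609 to 92181247) lies 268 bp upstream of the RefSeq start, although it is annotated as distal intergenic. It held 220, 186 and 230 reads in wild type and 159, 161 and 125 in Cox10-/- liver, with no overlap, and changed by -0.52 (SE 0.11, limma adjusted p = 7.1e-06). Region 5, which begins 509 bp downstream of that start, held 97.1, 72.6 and 70.3 reads and then 30.6, 46.8 and 35.6, a change of -1.07 (SE 0.18). The step of 0.56 between these regions passed the test (SE 0.20, limma adjusted p = 0.0335), with adjusted p of 0.0227 to 0.220 when a library was left out. A group of 4 regions in intron 1 of 25, 78.9 to 80.8 kb into the gene, changed by -1.24 to -1.09, and none of them passed the test against the median region.

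Hdac5 region 7 on chromosome 11 (102230294 to 102230746), 122 bp upstream of the start, held 78.5, 95.9 and 93.3 reads in wild type and 85.0, 58.9 and 56.1 in Cox10-/- liver, and Cox10-/- replicate 1 lay above wild-type replicate 1. Its change of -0.43 (SE 0.15, limma adjusted p = 0.00541) was the smallest of the 24. It was not past the threshold in the authors' deposited table (adjusted p = 0.0528), nor by limma without Cox10-/- replicate 3 (0.0508). Across the start, a region named for the microRNA gene Mir8101 changed by -0.78 (SE 0.14). The other 6 Hdac5 regions lay 10.2 to 14.4 kb into the gene and changed by -1.57 to -0.99.

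Of these 6, region 3 (102216938 to 102217322) held 117, 104 and 97.1 reads in wild type and 43.3, 35.5 and 28.0 in Cox10-/- liver. It changed by -1.57 (SE 0.17, limma adjusted p = 3.7e-17) and by -0.51 relative to the median region (adjusted p = 0.00327), a call that held in the same 15 alternatives. Region 4, the strongest at Hdac5 with 197 ± 25.1 reads in wild type and 84.1 ± 2.26 in Cox10-/- liver (SD, n = 3), changed by -1.21, and region 5 by -1.34. The steps from region 6 to the Mir8101 region (0.56, SE 0.23) and from there to region 7 (0.34, SE 0.20) did not pass the test (limma adjusted p = 0.0690 and 0.225). Regions 4, 5 and 6 are annotated as promoters although they lie 10.2 to 12.1 kb downstream of the RefSeq start used here, so the annotation does not separate signal at that start from signal inside the gene. By the annotation, the share of Hdac5 signal outside promoters was 36.5% ± 2.63 in wild type and 34.2% ± 1.41 in Cox10-/- liver (SD, n = 3, exact permutation p = 0.2).

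Hdac7, the class IIa gene best known from endothelial cells and thymocytes, had 1 region on chromosome 15 (97830649 to 97831157), 338 bp downstream of one of its 4 RefSeq starts. It held 82.5, 65.7 and 80.5 reads in wild type and 49.3, 55.7 and 59.1 in Cox10-/- liver, and the groups did not overlap. The change was -0.47 (SE 0.16, limma adjusted p = 0.00492), and 0.58 relative to the median region (adjusted p = 6.8e-04). Endothelial markers with a region had a median log2 change of -0.54, beside -1.81 for hepatocyte markers; their part in the Hdac7 value was not tested.

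The order of the regions by strength differed between the genotypes. Per kb of region, Sirt3 region 2 ranked first of the 24 in wild type (403 reads per kb) and number 15 in Cox10-/- liver (112), and Sirt3 region 1 went from number 5 (294) to the last place (63.4). Hdac2 ranked second in both (339 and 191 reads per kb). Hdac4 region 6 was number 3 in wild type (332) and first in Cox10-/- liver (232). Sirt1 region 2 went from number 14 (240 ± 22.7, SD, n = 3) to number 3 (168 ± 23.6). The ranks are descriptive, and many neighbours in the order lay within each other's spread.

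Summed over all regions of a gene, the 9 genes were all lower on the deposited scale, where 92.7% of gene totals were lower and 2.02% higher. Sirt3 held 774, 767 and 758 reads in wild type and 192, 207 and 180 in Cox10-/- liver, a log2 change of -1.98 (SE 0.0867, limma adjusted p = 9.4e-114), or 3.96-fold. Only 6.31% of gene totals had a lower change. Relative to the median gene, whose change was -0.88, 2 of the 9 lost more (Sirt3 by -1.09 and Hdac5 by -0.25, adjusted p = 1.7e-36 and 6.4e-05), against 33.1% of all genes. Another 3 lost less (Hdac7 0.43, Sirt1 0.39 and Sirt5 0.32, adjusted p = 0.0145, 4.6e-04 and 0.00287), against 30.2% of all genes. With the mean of log2 values over regions in place of the sum, 1 of the 9 lost more and 3 less, beside 3345 and 3822 of all genes. Totals of Hdac1, Hdac2, Hdac3 and Hdac4 lay between -0.91 and -0.82 and did not pass the test against the median gene.

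Genes that work with these enzymes were described by the strongest promoter region of each. Over 9663 genes the median log2 change was -0.82, with 93.8% of genes lower and 0.807% higher. Relative to the median region, 15.4% of genes lost more and 49.2% less, since promoters as a class lost less than other regions. The 7 deacetylase genes with a promoter region had a median of -0.82, and 1 of them lost more and 4 less. This choice of regions follows the annotation. Hdac5 entered by region 4 (-1.21), which lies 11.3 to 12.1 kb downstream of the RefSeq start used here. Its region 7, just upstream of that start, changed by -0.43. Hdac4 and Sirt5 were left out because their regions nearest the start (-0.52 and -0.57) are annotated as distal intergenic.

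Among genes for partners and kinases of class IIa proteins, all 17 with a promoter region (of 21 listed) fell, with a median of -0.61, and 13 lost less and 3 more than the median region. Mef2d, a transcription factor bound by class IIa deacetylases, changed by -0.43, and Ywhaz, which encodes a 14-3-3 protein, by -0.47. Those that lost more were Camk1d (-1.66), Prkd3 (-1.52) and Stk11 (-1.56), which encode kinases. Other kinase genes of the list lost less, namely Camk1 (-0.29), Camk2d (-0.31), Prkd2 (-0.39), Sik1 (-0.88) and Sik2 (-0.71). Sik3 (-1.15) did not pass the test against the median region. Stk11 activates the salt-inducible kinases, which the Sik genes encode. Subunits of the NuRD, SIN3 and CoREST complexes, which hold Hdac1 and Hdac2, had 28 promoters of 33 genes, all lower, with a median of -0.87. Of these, 12 lost less than the median region, among them the NuRD genes Mta2 (-0.61) and Mta3 (-0.51), and none lost more. Over all promoter genes 49.2% lost less and 15.4% more, and the median was -0.82. Of the NCoR and SMRT list 9 of 10 genes had a promoter, all lower (median -0.81); 4 lost less, among them Ncor1 (-0.74) and Tbl1xr1 (-0.67), and 1 more, Nr1d1 (-1.19), the circadian repressor that recruits Hdac3. Of 8 other deacetylase genes 3 had a promoter region, where Hdac11 changed by -1.76, Sirt4 by -1.06 and Hdac10 by -0.71.

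Of 13 genes whose products Sirt3 or Sirt5 act on, 11 had a promoter, all 11 fell with a median of -1.24, and 7 lost more and 3 less than the median region. The urea cycle genes Otc (-3.32) and Cps1 (-1.71) were among the 7, and the fatty acid oxidation gene Acadl (-0.33) and Pdha1 (-0.66), of pyruvate dehydrogenase, among the 3. Genes of NAD supply and use had 13 promoters of 18 genes, 12 of them lower (median -1.15); 3 lost more and 3 less. Naprt (-2.002) and Nmrk1 (-1.98), of NAD synthesis from nicotinic acid and nicotinamide riboside, and Nnmt (-1.91), which methylates nicotinamide, made up the former, while Parp2 (-0.42) was among the latter. Cd38, an NAD glycohydrolase, had a value of -0.26 and did not pass on the deposited scale. All 13 genes for nuclear proteins that Sirt1 acts on were lower (median -1.10), with 3 losing more, among them Srebf1 (-2.33) and Hnf4a (-1.39), and 4 less, among them Trp53 (-0.66) and Rela (-0.79). Cps1 and Hnf4a are also among the hepatocyte markers whose summed signal is given above, and the part of that change in these lists was not tested.

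**Figure D4:**
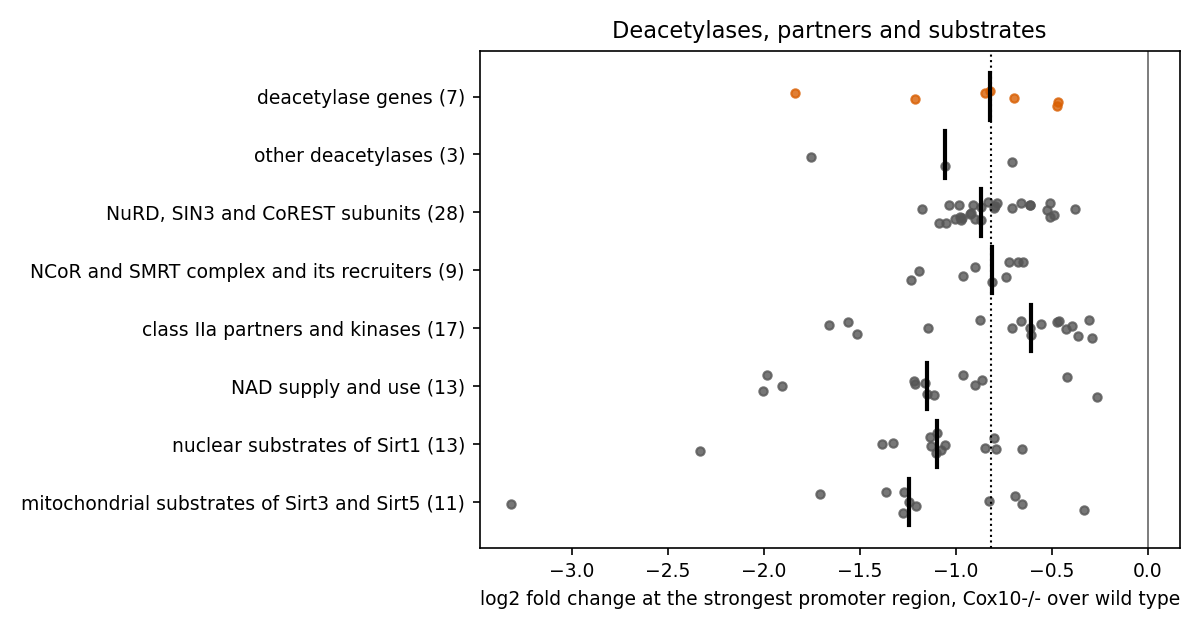
Log2 change (Cox10-/- over wild type) of the strongest promoter region of each gene, 1 point per gene, for the deacetylase genes and 7 lists of genes that work with them, with the median of each list and a line at the median of 9663 promoter genes. The list of class IIa partners has a median of -0.61 and the list of mitochondrial substrates one of -1.24. Hdac4 and Sirt5 have no region annotated as a promoter and are not shown, and Hdac5 is shown by region 4, inside the gene.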

How the data were processed

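H3K27ac was compared between 3 ChIP-seq libraries of wild-type and 3 of Cox10-/- liver; 6 input libraries were not used here. The authors deposited, in 1 table, normalised signal per region, a log2 fold change, a test score and p-values for Cox10-/- over wild type, and an annotation. The submitters' processing notes name mm10, BWA (0.7.5), deepTools (3.5.0) and MACS, with no roles. Per the labels' protocols, chromatin of a spike-in was mixed in before the antibody step; where the size factors came from is not stated. Every value was a whole number of reads divided by its library's size factor (100% within 0.01 reads). Of 36446 entries, 59 repeated others and were dropped. Coordinates are as deposited; their counting base is not stated.

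Regions, gene totals and adjacent pairs (within 10 kb) were tested on log2(value + 1) in limma (3.58.1, R 4.3.3), with a variance trend, no filter and no block. The pseudocount understates changes of low regions. Adjusted p (Benjamini-Hochberg over all features) under 0.05 was the threshold. The scripts were tested on simulated data. Same-numbered replicates did not vary together (correlations -0.00092, 0.0074 and 0.0054), so numbers were not taken as pairs. The members and lists were chosen with earlier results of these data known. Regions given in full were each gene's strongest in and outside promoters. To these were added the 3 most and 3 least changed at or above the median level of all regions. List genes were up to 2 per direction by relative adjusted p. Camk1d, the kinase genes that lost less, Sik3, Nmrk1, Sirt4 and the other regions given were chosen after their values were seen. Alternatives were pseudocounts of 0.5 and 5, no variance trend, a minimum mean of 20, stricter thresholds, a replicate block, leaving out each library, centring on the median promoter or the library total, and count tests on the recovered reads by DESeq2 1.42.0 and edgeR 4.0.16.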

Additional observations from a re-analysis of the deposited data

How the results depend on the processing

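All 24 deacetylase regions were lower in every alternative on the deposited scale by sign. Of 360 single-region values there, 349 kept their call and 11 lost it; of 408 relative values, 368 kept theirs, 21 lost and 8 gained a call, and 11 changed sign, none of them past the threshold. With a minimum of 1.5-fold, 1 of the 24 regions and 6145 of all regions lost less than the median region. Centred on the median promoter, 6 regions lost more, beside 14417 of all regions. With the mean of log2 values per gene in place of the sum, 1 of the deacetylase genes lost more than the median gene, beside 3345 of all genes. With a library left out, 1 to 2 of the 17 adjacent pairs differed (1 without wild-type replicate 1 or Cox10-/- replicate 1). The share over all pairs is given only for the main fit, where 25.1% differed. With the replicate block, 24 regions were lower, 3 lost more and 8 less than the median region, and 3 pairs differed. Over all regions 31755 were lower, 11820 lost more and 12249 less. The block changed none of the counts of deacetylase regions and pairs, and the numbers do not pair the libraries. The sign changes were at Hdac3 region 1 (0.052 with a pseudocount of 5), Hdac5 region 1 (-0.083 centred on the median promoter) and, with a library left out, at Hdac3 region 1 (-0.155 to 0.195), Hdac5 region 1 (-0.069 to 0.165), Hdac4 region 1 (-0.237 to 0.0039), Hdac4 region 5 (-0.17 to 0.154), Hdac5 region 2 (-0.061 to 0.035) and Hdac1 region 2 (-0.2345 to 0.096). The cause was not tested. With promoters taken to 3 kb, no gene had signal both in and outside promoters, so the shares have no second value. Depth limits the weaker regions most: Hdac3 region 1 rested on 17 to 38 recovered reads per library (14.4 to 52.0 after normalisation). The absolute fall depends on size factors of unstated origin.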

Other observations

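Distal intergenic regions as annotated were not all far from a start. Of 6222 such regions, 123 (1.98%) held a RefSeq start and 549 (8.82%) lay within 1000 bp of one, as the Sirt5 region and Hdac4 regions 5 and 6 did. The 549 had a median log2 change of -1.001, beside -1.27 for the other 5673.

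Beyond the 3′ end of Hdac7 on chromosome 15, the neighbouring gene Slc48a1, which encodes a heme transporter, had 3 regions and was chosen after its values were seen. A region from 97786215 to 97786814 rose from 47.9, 27.4 and 32.0 reads in wild type to 97.7, 94.4 and 93.2 in Cox10-/- liver, a log2 change of 1.43 (SE 0.17, limma adjusted p = 3.9e-14), with no overlap. The next, from 97787147 to 97787744, rose by 1.25 (SE 0.17, limma adjusted p = 2.0e-12). The strongest, from 97784402 to 97785183, held 188 ± 34.1 and 205 ± 1.69 reads (SD, n = 3) and did not pass the test (limma adjusted p = 0.213). Hdac7 itself was lower on the same scale. The starts of Sirt6, which had no region, lay 974 and 1218 bp from that of Ankrd24.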
